A study of Mus musculus with 18 samples.

Results

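Expression of 36 genes of brain vessels was followed in the forebrain, midbrain and hindbrain of 6 mice at postnatal day 25. The genes are listed symbols of brain endothelium, pericytes and vascular smooth muscle, matched by the GENCODE M21 annotation to 36 of the 53468 genes of the deposited table. No cutoff on a measured value picked them, but the list was chosen with earlier results of these data known. They comprise 26 endothelial genes (10 of junctions and the cell surface, 6 receptors and ligands, 5 transporters and 5 transcription factors), 7 pericyte genes and 3 smooth muscle genes. All 36 passed the filter on low counts in every comparison, and the lowest count of any of them in any library was 32, for Higd1b.

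Brain capillaries are lined by endothelial cells that are sealed to each other by tight junctions, move nutrients through dedicated transporters and export foreign compounds with efflux pumps. Pericytes share the capillary's basement membrane and are held there by PDGF signalling, while smooth muscle cells wrap arterioles and set their width. Wnt ligands from neural cells keep brain endothelium in its barrier state, and VEGF and angiopoietin receptors govern the growth and rest of the vessels.

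Each group held 3 mice that the labels call biological replicates from the same litter. Fmr1CRE mice carry a single-base substitution that was knocked in, with CRISPR/Cas9 in zygotes on a C57BL/6 background, at a conserved regulatory element of Fmr1, the gene of the RNA-binding protein that is lost in fragile X syndrome. The other 3 mice were WT, and no agent was given to either genotype. The labels call the genotype "Fmr1 Mut" and do not state the sex of the animals or the zygosity of the allele, and which of the several lines that were made gave these animals was not given in the sources used here. All 18 libraries (6 mice, 3 regions each) were made from polyadenylated RNA of whole dissected tissue, so fewer cells of a type and less RNA per cell cannot be told apart.

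The libraries held 22455512 to 28061185 counts, of which the 36 genes took 0.0932 to 0.133%. Hoxb3, a hindbrain gene, was at 16.2 to 21.9 CPM (counts scaled to a library of fixed size, here by the library total) in hindbrain and at no more than 1.48 elsewhere. En1, a gene of the midbrain and anterior hindbrain, was at 3.61 to 8.53 CPM in midbrain, 1.32 to 3.05 in hindbrain and no more than 0.201 in forebrain. Fmr1 itself was at 70.0 to 77.6 CPM in Fmr1CRE forebrain and 63.3 to 79.4 in WT forebrain, and the genotypes also overlapped in midbrain and hindbrain. The base change lies outside the coding sequence, so this level does not check the genotype. Of 49 genes that differed at least 4-fold, in 1 direction, between the Fmr1CRE and the WT mouse of replicate 3 in both midbrain and hindbrain, 35 differed in the opposite direction in forebrain, against 21 of 49 for replicate 1 and 24 of 46 for replicate 2. From reads summed per gene it was 28 of 36 for replicate 3, against 6 of 25 for replicate 1 and 12 of 25 for replicate 2. The forebrain libraries of replicate 3 therefore go against their labels more often than the others, whose labels this check does not establish. Counts of called members between regions and the directions of the genotype differences are therefore also given with both mice of replicate 3 left out, while levels and fold changes include them unless stated. Every defining marker fixed for endothelium, pericytes and smooth muscle was above 0 in every library.

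The deposited counts are not plain sums of reads. They were recovered to within 0.179% of each library's total, summed over genes, from the transcript estimates by scaling for transcript length, while the summed reads differed from them by 3.85 to 6.48%. For 4 of the 36 genes the ratio of deposited count to summed reads moved at least 2-fold between libraries, as it did for 9.50% of the 14616 genes with at least 20 reads in every library. Region results are given from the deposited counts, and the calls of members that differ on summed reads are named beside them. Summed reads are an alternative that was chosen after the data were seen.

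Levels per kilobase of transcript, from summed reads over all 18 libraries, ranged from 0.480 CPM per kilobase for Foxq1 to 314 for Bsg. Bsg encodes basigin, a partner of monocarboxylate transporters that other brain cells also make. The next highest were Ly6c1 at 31.8, Egfl7 at 29.2, Rgs5 at 28.6, Itm2a at 28.6 and Slc2a1 at 27.9 CPM per kilobase. From Ly6c1 (22.1 to 51.3 over the libraries) to Slc2a1 (17.7 to 36.1) the ranges of neighbours overlapped, so that their order does not hold beyond the spread. The 5 transcription factors were at 0.480 to 2.45 CPM per kilobase.

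Forebrain and hindbrain differed in 22 of the 36 genes (edgeR quasi-likelihood test, adjusted p under 0.05, averaged over genotypes in 1 fit of all 18 libraries). In forebrain 13 were higher, against 26.4% of all 20363 genes tested, and 9 were lower, against 25.3% of all genes. The receptors and the transcription factors stood on the forebrain side, with 5 of 6 and 4 of 5 higher and none lower. Of the 10 junction and surface genes 1 was higher and 5 lower in forebrain. The lower ones were Ly6a, Ly6c1, Bsg, Itm2a and the tight junction gene Ocln. Cdh5, Cldn5, Pecam1 and Esam lay on the forebrain side, Cdh5 alone past the threshold. Pericyte genes split into 1 higher and 2 lower of 7, transporters into 1 and 1 of 5, and smooth muscle genes into 1 and 1 of 3. The median log2 fold change of the 36 genes was 0.10, beside -0.01 over all genes tested. Called genes made up 51.7% of all genes. In the following, levels are CPM scaled by the trimmed mean of M values (TMM), and each triple is the lowest, median and highest of 6 mice.

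**Figure D1:**
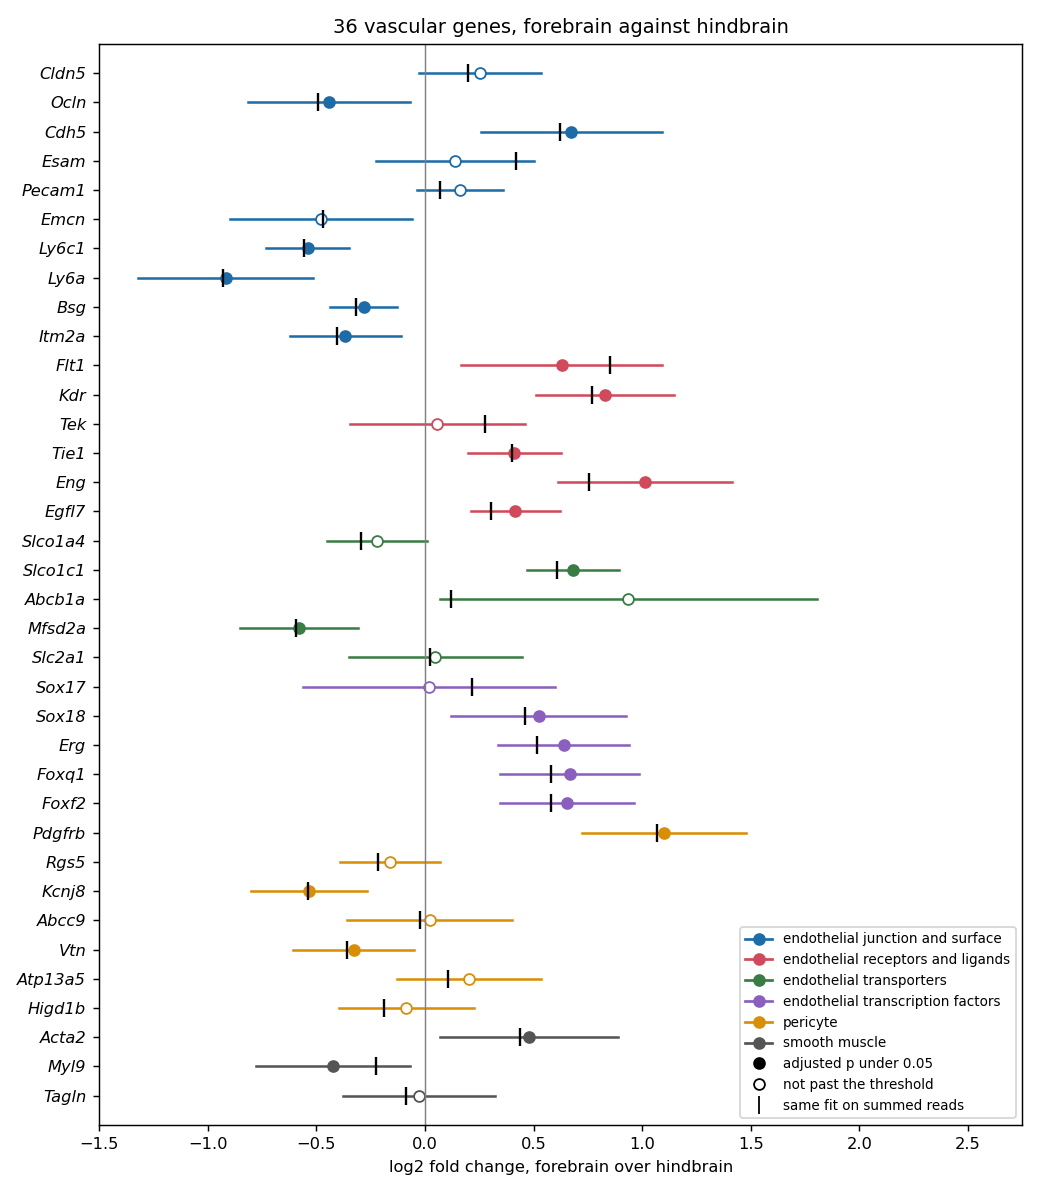
Log2 fold change of each of the 36 genes in forebrain over hindbrain (x axis) by gene (y axis), with 95% intervals; filled points passed an adjusted p under 0.05, and black ticks give the same fit on summed reads. Receptors and transcription factors lie to the right of 0, as do Cdh5, Cldn5, Pecam1 and Esam. The other junction and surface genes lie to the left, and Abcb1a moves from 0.94 to 0.12 between the scales.

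Among the junction and surface genes, Ly6a and Ly6c1, which encode small GPI-anchored surface proteins of brain endothelium, were the furthest toward hindbrain. Ly6a was at 7.21, 8.27 and 12.5 CPM in forebrain and at 10.8, 15.7 and 24.8 in hindbrain. It was lower in forebrain by 1.89-fold (log2 fold change -0.92, SE 0.19, adjusted p = 0.000751), with 1 hindbrain library, that of Fmr1CRE replicate 1, inside the forebrain range. Ly6c1 was at 16.6, 20.8 and 25.6 CPM in forebrain and at 23.1, 30.5 and 37.8 in hindbrain, 1.45-fold lower in forebrain (log2 fold change -0.54, SE 0.09, adjusted p = 0.000109). Part of the Ly6c1 sequence is shared with the neighbouring Ly6c2, as 46.8% of its 31-base words occur in other genes, and for Ly6a the share is 31.9%, so reads can be divided among these genes. Itm2a, a membrane protein gene enriched in brain vessels, followed at -0.37 (SE 0.12, adjusted p = 0.0179), and Bsg at -0.28 (SE 0.07, adjusted p = 0.00412).

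Ocln, the gene of the tight junction protein occludin, was at 7.78, 8.63 and 11.6 CPM in forebrain and at 8.62, 11.7 and 16.3 in hindbrain, with overlapping ranges. Its log2 fold change of -0.44 (SE 0.17, adjusted p = 0.0448) passed the threshold on deposited counts but neither with the mouse as a block (adjusted p = 0.0538) nor without replicate 3 (adjusted p = 0.0935). Cdh5, which encodes the VE-cadherin of adherens junctions, was the one gene of this group that was higher in forebrain, at 4.34, 8.24 and 11.3 CPM against 4.51, 4.91 and 5.99 in hindbrain (log2 fold change 0.67, SE 0.20, adjusted p = 0.00866). That call was lost without replicate 3 (adjusted p = 0.150). The other 4 members of the group did not pass, namely Cldn5, the main claudin of brain endothelium, at 0.25 (95% interval -0.03 to 0.54), Pecam1 at 0.16 (-0.04 to 0.36), Esam at 0.14 (-0.23 to 0.50) and Emcn, the gene of endomucin, at -0.48 (-0.90 to -0.06). From summed reads Esam was higher (0.42, adjusted p = 0.000139) and Emcn lower (-0.47, adjusted p = 0.0202).

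The receptor genes moved toward forebrain. Eng, the gene of the TGF-beta co-receptor endoglin, was at 11.97, 16.6 and 26.03 CPM in forebrain and at 6.23, 7.76 and 12.3 in hindbrain, a 2.02-fold difference (log2 fold change 1.01, SE 0.19, adjusted p = 0.000289). Kdr, which encodes the main VEGF receptor, was at 7.58, 13.2 and 18.2 CPM in forebrain and 5.58, 7.44 and 7.96 in hindbrain (1.78-fold, log2 fold change 0.83, SE 0.15, adjusted p = 0.000236). Only the forebrain library of Fmr1CRE replicate 1 fell within the hindbrain range of Kdr. Flt1, whose product also binds VEGF and is in part secreted, was higher by 0.63 (SE 0.22, adjusted p = 0.0233), and by 0.85 from summed reads (adjusted p = 5.03e-05). Its forebrain libraries spread widely, with 18.5, 35.8 and 60.8 CPM, and the call was lost without replicate 3 (adjusted p = 0.380).

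The endothelial receptor gene Tie1 and the endothelial ligand gene Egfl7 were higher by 0.41 (SE 0.10, adjusted p = 0.00266) and 0.42 (SE 0.10, adjusted p = 0.00185) in edgeR. Neither passed without replicate 3 (adjusted p = 0.0671 and 0.0530). Tek, the gene of an angiopoietin receptor, was at 10.49 CPM in the median in forebrain and 9.34 in hindbrain. It did not pass, with a difference of 0.06 (95% interval -0.35 to 0.46). From summed reads Tek was higher by 0.28 (adjusted p = 0.0283).

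**Figure D2:**
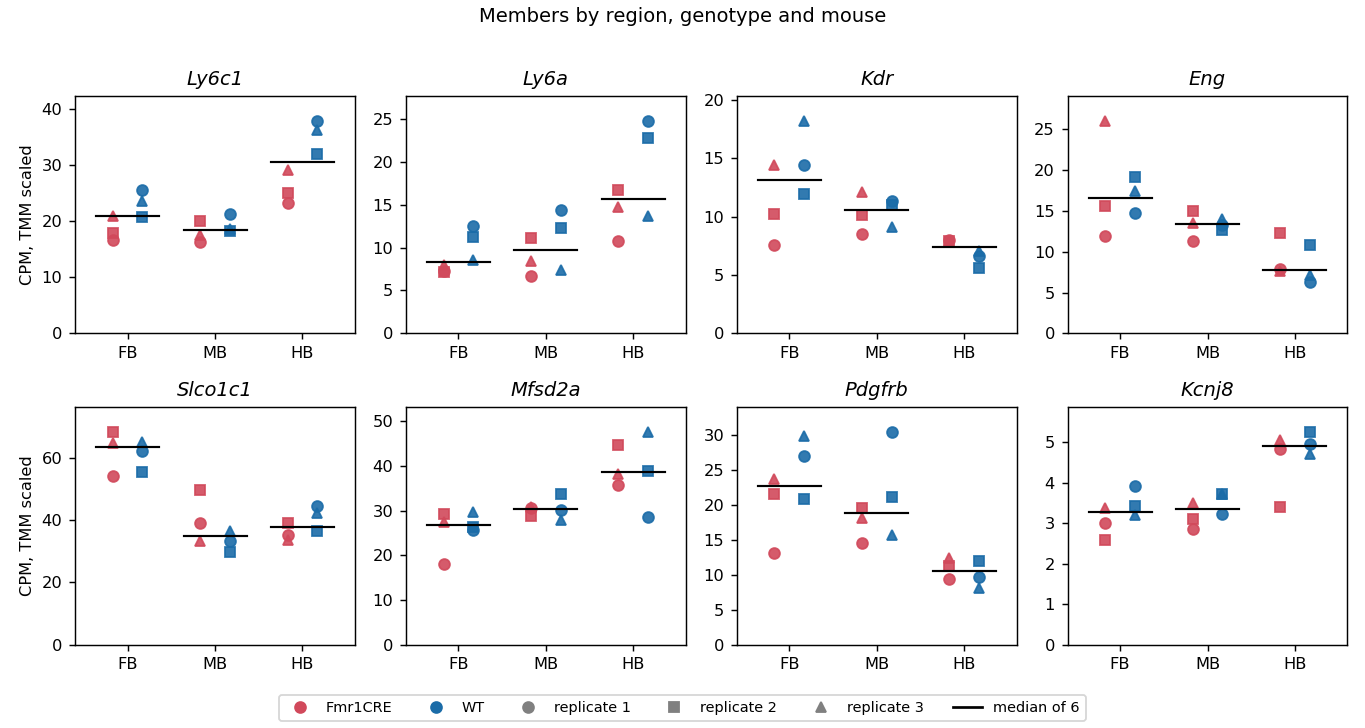
CPM (TMM scaled, y axis from 0) of 8 members in each library, by region (FB forebrain, MB midbrain, HB hindbrain); colours give genotype, symbols the replicate number and black lines the median of 6 mice. Slco1c1 and Pdgfrb separate forebrain from hindbrain in every library, while Ly6c1, Ly6a, Mfsd2a and Kcnj8 have their highest medians in hindbrain.

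The transporters went in both directions. Slco1c1, the gene of a thyroid hormone and organic anion carrier that astrocytes also make, was at 54.3, 63.7 and 68.4 CPM in forebrain and at 33.7, 37.9 and 44.7 in hindbrain. The ranges did not overlap, and the difference was 1.60-fold (log2 fold change 0.68, SE 0.10, adjusted p = 3.13e-05). Mfsd2a, which encodes the carrier that brings lysophospholipid-bound omega-3 fatty acids across the barrier, was at 18.1, 26.9 and 29.6 CPM in forebrain and at 28.5, 38.5 and 47.5 in hindbrain, lower in forebrain (log2 fold change -0.58, SE 0.13, adjusted p = 0.00127). Slc2a1, the gene of the endothelial glucose transporter, differed by 0.05 (95% interval -0.35 to 0.45), with medians of 71.0 and 68.4 CPM. Slco1a4, of another organic anion carrier, was at -0.22 (-0.45 to 0.01) on deposited counts and lower by 0.29 from summed reads (adjusted p = 0.00199).

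Abcb1a, the gene of the efflux pump P-glycoprotein, lies at chr5:8660077-8748575 on the plus strand of GRCm38, and its value depended on 1 short annotated transcript. The protein-coding Abcb1a-201 has 4997 bases and held 96.5% of the gene's reads, whereas Abcb1a-204, classed as a processed transcript, has 129 bases and an effective length of 5. Its sequence is shown because 1.45 to 3.19 estimated reads of it set the deposited count of the gene. Capitals mark the 35 bases before the first 31-base word that Abcb1a-201 also holds.
Abcb1a-204: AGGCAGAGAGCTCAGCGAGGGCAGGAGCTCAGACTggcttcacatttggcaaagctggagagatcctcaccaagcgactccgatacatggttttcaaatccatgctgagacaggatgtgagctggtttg

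In the 4 libraries with any such reads the deposited count stood far above the reads, at 1282 against 326 in Fmr1CRE forebrain 1, 2722 against 604 in WT forebrain 2, 2634 against 711 in WT forebrain 3 and 1983 against 527 in Fmr1CRE hindbrain 1. In the other 14 libraries the count was 330 to 542 and the reads 415 to 670. On deposited counts Abcb1a was at 16.8, 36.5 and 110 CPM in forebrain and at 15.0, 18.0 and 70.5 in hindbrain (log2 fold change 0.94, SE 0.41, adjusted p = 0.0666). From summed reads it was 0.12 (adjusted p = 0.469). Abcb1a also shares 28.2% of its 31-base words with other genes, chiefly Abcb1b.

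**Figure D3:**
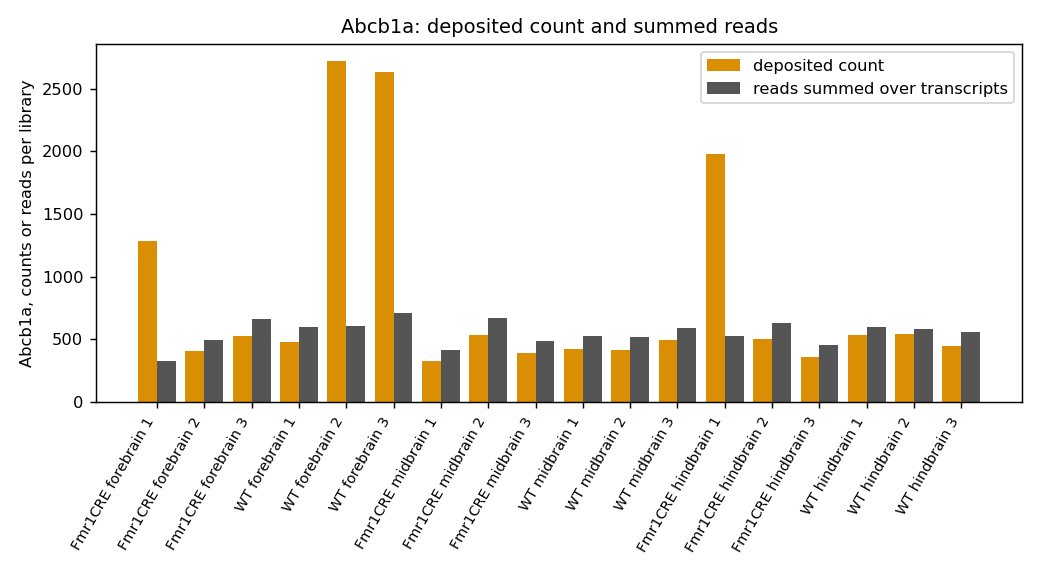
Abcb1a in the 18 libraries (x axis): deposited count and reads summed over its transcripts (y axis, from 0). The 4 libraries with deposited counts of 1282 to 2722 have 326 to 711 reads, against 415 to 670 reads in the other 14.

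The transcription factors that specify endothelium were at low levels and leaned to forebrain. Erg, an ETS factor, was at 3.20, 5.59 and 6.85 CPM in forebrain and at 2.67, 3.43 and 3.97 in hindbrain (log2 fold change 0.64, SE 0.14, adjusted p = 0.00131). Foxf2, a forkhead factor made in brain endothelium and pericytes, was at 2.33, 2.59 and 3.30 against 1.43, 1.63 and 2.09 CPM, without overlap (0.65, SE 0.15, adjusted p = 0.00138). Foxq1 was higher by 0.67 (SE 0.15, adjusted p = 0.00154, edgeR). However, 65.9% of its 31-base words also occur in other genes, most often in 1 annotated on the opposite strand, so its reads cannot be assigned with certainty. Sox18 was higher by 0.52 (SE 0.19, adjusted p = 0.0291) but not without replicate 3 (adjusted p = 0.184). Sox17, the related factor of arterial endothelium, differed by 0.02 (95% interval -0.56 to 0.60).

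Of the pericyte genes, Pdgfrb showed the largest rise of all 36. It encodes the receptor through which PDGF holds pericytes on the capillary, and it was at 13.1, 22.6 and 29.9 CPM in forebrain and at 8.15, 10.49 and 12.3 in hindbrain. The ranges did not overlap, and forebrain was 2.14-fold higher (log2 fold change 1.10, SE 0.18, adjusted p = 8.01e-05). Kcnj8, which encodes a pore subunit of the pericyte KATP channel, went the other way, at 2.59, 3.29 and 3.92 CPM in forebrain and 3.39, 4.90 and 5.25 in hindbrain (log2 fold change -0.53, SE 0.13, adjusted p = 0.00207). Abcc9, the gene of the regulatory subunit of the same channel, was at 6.88 CPM in the median in forebrain and 6.35 in hindbrain, a difference of 0.02 (95% interval -0.36 to 0.40).

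Vtn, the vitronectin gene, was lower in forebrain by 0.33 on the log2 scale (SE 0.13, adjusted p = 0.0470). Rgs5, a regulator of G protein signalling and the most abundant pericyte gene here per length, was at 115 CPM in forebrain and 129 in hindbrain in the median and did not pass (-0.16, 95% interval -0.39 to 0.07). Atp13a5 (0.20, -0.13 to 0.54) and Higd1b (-0.09, -0.39 to 0.22) did not pass either.

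The contractile genes of smooth muscle did not move together. Acta2, the smooth muscle actin gene, was at 3.24, 5.23 and 6.34 CPM in forebrain and 2.65, 3.50 and 4.15 in hindbrain, with overlapping ranges (log2 fold change 0.48, SE 0.19, adjusted p = 0.0483), and the call was lost with the mouse as a block (adjusted p = 0.0591) and without replicate 3 (adjusted p = 0.489). Myl9, the gene of a myosin regulatory light chain, was at 5.83, 7.45 and 9.25 CPM in forebrain and 7.29, 9.60 and 12.7 in hindbrain (-0.42, SE 0.17, adjusted p = 0.0438). From summed reads the Myl9 difference was -0.23 and did not pass (adjusted p = 0.121). Tagln, the gene of transgelin, differed by -0.03 (95% interval -0.38 to 0.32). Of its 31-base words 62.2% also occur in other genes, most often in Gm48529, which overlaps it on the opposite strand.

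The promoters of Acta2 and Myl9 are shown because both genes are known targets of serum response factor, which binds the CArG box. Their differences on deposited counts had opposite signs, but neither call was firm. Of 18 alternatives, 13 ended the call of Acta2 and 12 that of Myl9, and each single left-out mouse ended that of Myl9. Each runs from 250 bases before to 50 after the annotated start (RefSeq, GRCm38.p6), at chr19:34255324-34255623 on the minus strand for Acta2 and chr2:156775214-156775513 on the plus strand for Myl9. Only the strict consensus of the CArG box, with no mismatch, was searched on both strands and is marked in capitals. Elements 1 base off it are not marked, and the Acta2 promoter is known to hold CArG elements of that kind.
Acta2: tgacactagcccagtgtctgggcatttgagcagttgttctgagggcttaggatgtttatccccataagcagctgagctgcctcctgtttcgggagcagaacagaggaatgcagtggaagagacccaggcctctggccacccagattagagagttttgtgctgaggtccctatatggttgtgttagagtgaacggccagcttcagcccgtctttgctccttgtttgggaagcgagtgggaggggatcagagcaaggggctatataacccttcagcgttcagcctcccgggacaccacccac
Myl9: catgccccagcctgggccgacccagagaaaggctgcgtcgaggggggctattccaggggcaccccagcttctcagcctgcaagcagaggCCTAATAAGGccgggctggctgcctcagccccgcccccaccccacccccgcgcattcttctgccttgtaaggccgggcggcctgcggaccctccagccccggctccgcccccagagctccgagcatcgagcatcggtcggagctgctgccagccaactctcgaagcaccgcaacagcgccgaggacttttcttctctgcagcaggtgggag

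Of the 36 genes, 25 had an entry among the RefSeq promoters, with 31 promoters in all. The strict CArG consensus occurred in 1 of them, that of Myl9, and in 1.63% of all 32851 promoters of this length, elements with a mismatch not being counted. The ETS-type word CCGGAAGT was in none of the 31 and in 3.89% of all promoters. The SOX-type word AACAAT was in 4 of the 31, those of Emcn, Slco1a4, Tek and 1 of Erg, and in 10.7% of all. TATAAA was in 6 member promoters, of Erg, Flt1, Ly6c1, Slc2a1, Slco1c1 and Vtn, and in 13.6% of all. Both strands were searched. A CArG box can hold TATAAA, but the one of Myl9 does not.

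Without overlap between forebrain and hindbrain libraries, 3 of the 36 genes were higher (Slco1c1, Foxf2 and Pdgfrb) and none lower, whereas 27.7% of all genes had no overlap. With both mice of replicate 3 left out, 16 genes passed (43.4% of all genes), 7 higher and 9 lower, with 15 of the 22 calls kept and Emcn gained. From summed reads 25 passed, 15 higher and 10 lower, against 60.7% of all genes, with Esam, Emcn, Tek and Slco1a4 gained and Myl9 lost. Scaling by total counts instead of TMM turned the split to 11 higher and 12 lower and shifted the median of all genes from -0.01 to -0.15, with 4349 of all genes higher and 6819 lower in place of 5383 and 5147. Ly6c1, Ly6a, Eng, Slco1c1, Mfsd2a and Pdgfrb kept their calls under every alternative that was run.

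Transcript length moved with the region difference. Over all genes the median log2 fold change of forebrain over hindbrain was -0.20 among the 5085 genes with the shortest transcripts and 0.23 among the 5085 with the longest. The 13 members higher in forebrain had a median transcript length of 3060 bases, and the 9 lower ones 1636 bases. After the trend with length was taken out of the summed reads, another alternative chosen after the data were seen, 23 members passed, against 59.2% of all genes. Against the 25 calls from summed reads, 21 were kept, Emcn, Bsg, Tek and Vtn were lost, and Cldn5 and Rgs5 were gained. The large differences were smaller on this scale than on deposited counts: Pdgfrb was at 0.85, Eng at 0.73, Kdr at 0.53, Ly6a at -0.70 and Ly6c1 at -0.32, and each still passed.

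**Figure D4:**
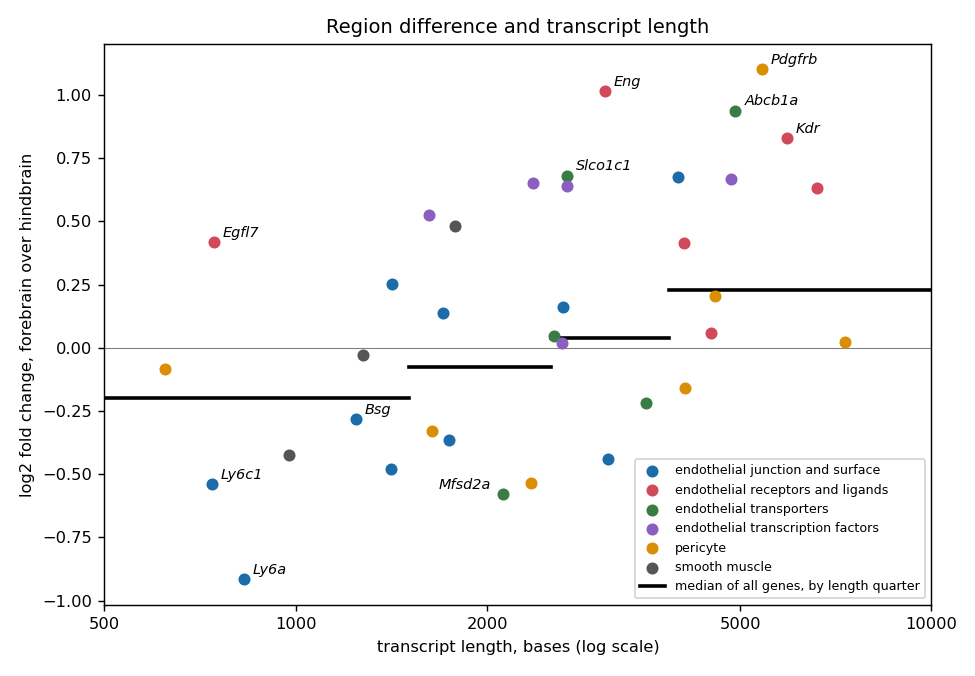
Log2 fold change of forebrain over hindbrain (y axis) against transcript length in bases (x axis, log scale) for the 36 members, coloured by group; black lines give the median of all genes in 4 length classes of equal size, clipped at the ends of the axis. The medians rise from -0.20 to 0.23, and Pdgfrb, Eng and Ly6a lie further from 0 than the medians of their classes.

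Midbrain was compared with each of the other regions. Against hindbrain, 5 members were higher in midbrain (25.1% of all genes) and 13 lower (24.0% of all genes), and the lower ones held 7 of the 10 junction and surface genes. Emcn differed most, at 1.83, 2.59 and 4.17 CPM in midbrain and 4.76, 5.89 and 7.01 in hindbrain, with no overlap (2.08-fold, log2 fold change -1.06, SE 0.20, adjusted p = 0.000439). Ly6c1 was lower by 0.70 on the log2 scale (SE 0.09, adjusted p = 1.33e-05) and Ly6a by 0.77 (SE 0.19, adjusted p = 0.00313). Rgs5, Kcnj8 and Higd1b of the pericyte genes were lower by 0.45 (adjusted p = 0.00302), 0.49 (adjusted p = 0.00442) and 0.55 (adjusted p = 0.00563), and so were the carriers Slco1a4 and Mfsd2a. The 5 genes higher in midbrain were Pdgfrb (0.92, SE 0.18, adjusted p = 0.000515), Eng, Cdh5, Kdr and Foxf2. Pdgfrb was at 14.5, 18.9 and 30.3 CPM in midbrain, above each hindbrain library.

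Without WT replicate 1, 11 members passed between midbrain and hindbrain (37.7% of all genes), with Ocln, Cdh5, Pecam1, Bsg, Eng, Foxf2 and Tagln lost. Without both mice of replicate 3, 14 passed (43.0% of all genes), and Ocln, Eng, Mfsd2a and Foxf2 were lost. From summed reads 20 passed (58.4% of all genes), Flt1 (0.51, adjusted p = 0.00468) and Myl9 (-0.30, adjusted p = 0.0451) joining. With the length trend removed 16 passed (54.0% of all genes): Cdh5, Bsg, Flt1, Kdr, Higd1b, Myl9 and Tagln of the calls from summed reads were lost, and Esam, Egfl7 and Sox18 gained. Over all genes the median difference between midbrain and hindbrain went from -0.30 among the shortest transcripts to 0.29 among the longest. Ly6c1, Ly6a and Rgs5 kept their calls under every alternative.

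Forebrain and midbrain were closer to each other. Of the 36 genes 6 were higher in forebrain (9.38% of all genes) and none lower (9.96% of all genes), with 14 at an unadjusted p under 0.05 (32.6% of all genes). Slco1c1 was at 29.9, 35.0 and 49.8 CPM in midbrain, below each forebrain library (1.68-fold, log2 fold change 0.74, SE 0.10, adjusted p = 0.000111). Erg was higher by 0.75 (SE 0.14, adjusted p = 0.00168), Higd1b by 0.47 (adjusted p = 0.0371), Pecam1 by 0.42 (adjusted p = 0.00489) and Egfl7 by 0.38 (adjusted p = 0.0118). The sixth, Abcb1a, at 1.51 (SE 0.42, adjusted p = 0.0182), was at 0.13 from summed reads (adjusted p = 0.528), and its call was also lost with the mouse as a block (adjusted p = 0.0610). The block added Rgs5 (0.29) and Vtn (-0.36), with adjusted p values of 0.0366 and 0.0472, and between midbrain and hindbrain it added Atp13a5 (0.37, adjusted p = 0.0289) and Myl9 (-0.37, adjusted p = 0.0175). Without both mice of replicate 3, 4 passed between forebrain and midbrain (18.5% of all genes): Slco1c1 and Pecam1 were kept and Rgs5 and Vtn gained. Scaling by total counts gave 5 members higher and 1 lower, with 1391 of all genes higher and 2926 lower in place of 1911 and 2028. From summed reads 10 members passed (28.3% of all genes), Esam, Emcn, Slco1a4, Rgs5 and Vtn joining, and with the length trend removed 13 did (28.4% of all genes), without Higd1b and with Flt1, Kdr, Tie1 and Foxq1.

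As summed levels, the 10 junction and surface genes took 445, 548 and 576 CPM in forebrain, 487, 500 and 535 in midbrain and 542, 633 and 717 in hindbrain. Bsg alone supplied 361 CPM of the forebrain sum and 438 of the hindbrain sum in the mean. The receptors and ligands went the other way, at 79.5, 109 and 143 CPM in forebrain and 60.2, 71.6 and 91.7 in hindbrain. The summed pericyte genes spanned 161 to 212 CPM in forebrain and 179 to 233 CPM in hindbrain, with Rgs5 at a mean of 118 and 132 CPM of these.

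Between genotypes no member passed an adjusted p under 0.05 in any region by edgeR or by DESeq2. In forebrain edgeR called 0 of 36 (0% of 18467 genes) and DESeq2 0 (0.168% of all genes). In midbrain both called 0, against 0.00543% and 0.337% of all genes, and in hindbrain both called 0, against 0% and 0.314%. At an unadjusted p under 0.05, 4 members stood out in forebrain (5.43% of all genes), 1 in midbrain (6.17% of all genes) and 1 in hindbrain (5.13% of all genes). The 95% intervals were wide, that of Ly6c1 in hindbrain being -0.77 to -0.16 and that of Cldn5 in the same region -0.53 to 0.37.

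Ly6c1 was the gene with the lowest unadjusted p. In hindbrain it was at 23.1, 25.1 and 29.0 CPM in the Fmr1CRE mice and at 37.8, 31.9 and 36.3 in the WT mice, without overlap, for a log2 fold change of -0.47 (SE 0.13, unadjusted p = 0.00830 and adjusted p = 0.875, edgeR). In forebrain it was at 16.6, 17.9 and 20.9 in Fmr1CRE mice and 25.6, 20.8 and 23.6 in WT mice, where the ranges met (-0.31, SE 0.13, adjusted p = 0.807, edgeR). In midbrain the values were 16.2, 20.1 and 17.5 against 21.2, 18.2 and 18.6. Ly6a lay on the same side, at 7.31, 7.21 and 7.97 CPM in Fmr1CRE forebrain and 12.5, 11.3 and 8.57 in WT forebrain (-0.49, SE 0.18, adjusted p = 0.807, edgeR), and at 10.8, 16.7 and 14.7 against 24.8, 22.8 and 13.7 in hindbrain, where the groups overlapped (-0.55, SE 0.26, adjusted p = 0.875, edgeR).

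Other members with the largest genotype difference of their group did not pass either. In forebrain these were Flt1 (log2 fold change -0.58, SE 0.29), Abcb1a (-1.34, SE 0.63), Erg (-0.26, SE 0.26), Abcc9 (-0.51, SE 0.26) and Acta2 (-0.39, SE 0.25), with adjusted p values of 0.807 to 0.838 by edgeR. Abcb1a was at -0.32 from summed reads, and its hindbrain value of 0.90 (SE 0.54) at -0.09. In midbrain Ocln was at 0.50 (SE 0.20), Tek at 0.63 (SE 0.32), Slco1c1 at 0.29 (SE 0.16), Foxf2 at -0.08 (SE 0.22), Pdgfrb at -0.36 (SE 0.23) and Acta2 at 0.50 (SE 0.28). From summed reads Ocln was at 0.08 and Tek at 0.24. In hindbrain Kdr was at 0.29 (SE 0.16), Sox17 at 0.48 (SE 0.38), Vtn at -0.32 (SE 0.20) and Myl9 at -0.14 (SE 0.26). Genotype differences also moved with transcript length: the hindbrain median of all genes went from -0.12 among the shortest transcripts to 0.10 among the longest. In forebrain it went from 0.05 to -0.07, and in midbrain from 0.003 to -0.006.

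**Figure D5:**
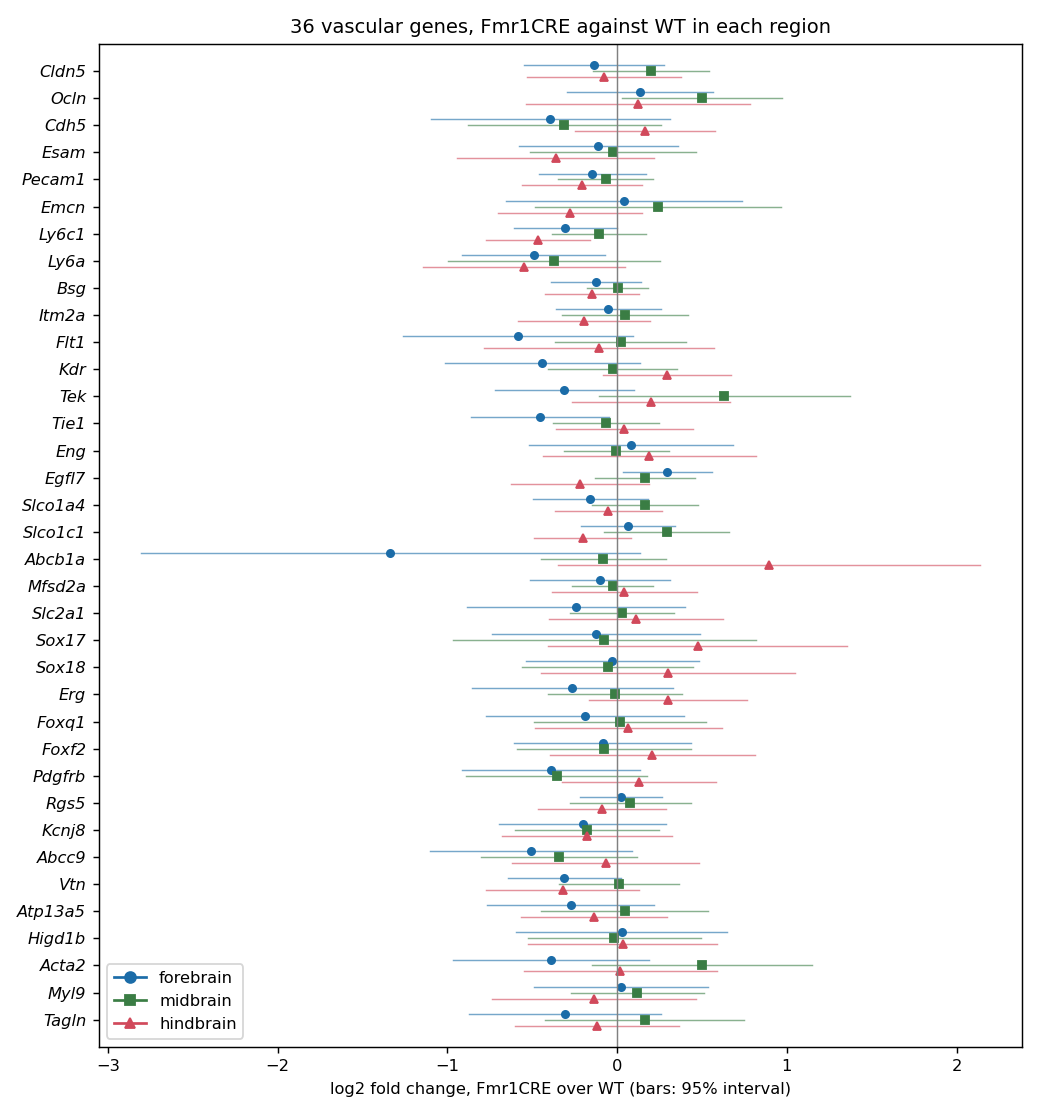
Log2 fold change of Fmr1CRE over WT (x axis) for the 36 genes (y axis) in forebrain, midbrain and hindbrain, with 95% intervals from 3 mice per genotype. None passed the adjusted threshold, and the widest interval is that of Abcb1a in forebrain.

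Taken by direction, 28 of the 36 genes lay below 0 in forebrain, 18 in midbrain and 19 in hindbrain. Their medians were -0.17, 0.00 and -0.06 on the log2 scale, beside medians of all genes of 0.00, 0.00 and -0.01. With both mice of replicate 3 left out, 33, 19 and 19 lay below 0, with medians of -0.28, -0.02 and -0.05 beside -0.01, 0.01 and -0.02 over all genes. Genes of other cells lay below 0 in the same forebrain comparison, namely 9 of 10 astrocyte, 9 of 10 microglial, 9 of 11 fibroblast and 5 of 5 blood cell genes. Without replicate 3 these were 10 of 10, 10 of 10, 9 of 11 and 0 of 5, and their part in the members' values was not tested.

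Groups without overlap between genotypes numbered 5 of 36 in forebrain, 1 higher in Fmr1CRE and 4 lower (10.2% of all genes), 0 in midbrain (11.3%) and 4 in hindbrain, 3 higher and 1 lower (10.8%). In forebrain the lower ones were Ly6a, Tie1, Vtn and Atp13a5, and the higher one Egfl7, though Vtn and Egfl7 overlapped on summed reads. These counts take the forebrain labels of replicate 3 as given. Without replicate 3 none of the 5 passed in forebrain by edgeR: Ly6a was at -0.66 (adjusted p = 0.286), Tie1 at -0.41 (adjusted p = 0.477), Vtn at -0.41 (adjusted p = 0.390), Atp13a5 at -0.41 (adjusted p = 0.531) and Egfl7 at 0.36 (adjusted p = 0.358). Ly6c1 was then at -0.37 in forebrain (adjusted p = 0.398, edgeR) and -0.55 in hindbrain (adjusted p = 0.314, edgeR).

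With the 3 regions of each mouse summed, 0 of 36 passed by edgeR (0.00451% of all genes) and by DESeq2 (0.131%), and 1, Ly6c1, was under an unadjusted p of 0.05 (3.70% of all genes). Its summed difference was -0.32 (SE 0.09, adjusted p = 0.998, edgeR). The interaction of genotype and region called 0 members by edgeR (0% of all genes) and by DESeq2 (0.250%), and 2, Tie1 and Abcb1a, were under an unadjusted p of 0.05 (7.54% of all genes). With summed reads in the edgeR interaction test, Abcb1a was not under it (unadjusted p = 0.514). Tie1, Kdr, Tek and Tagln were, beside 1554 of 20191 genes. That test treats the 3 libraries of an animal as unrelated.

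Within groups the genes varied together in part. After the mean of each region and genotype was removed, the 325 pairs of endothelial genes had a median correlation of 0.27 from summed reads over the 18 libraries, which share 6 mice. The median was -0.01 for the 21 pericyte pairs and 0.12 for the 182 pairs of an endothelial and a pericyte gene. It was 0.26 between endothelial and smooth muscle genes, 0.29 between pericyte and smooth muscle genes and 0.56 for the 3 smooth muscle pairs. Cdh5 and Flt1 were at 0.91, Itm2a and the pericyte gene Rgs5 at 0.89, Mfsd2a and Slc2a1 at 0.87 and Sox18 and Foxf2 at 0.84. Ly6a ran opposite to Rgs5 at -0.87 and to Itm2a at -0.74, and Ly6a also had the widest spread within groups by this measure, an SD of 0.26 on the log2 scale. Abcb1a correlated with Slc2a1 at 0.88 from summed reads and at -0.06 from deposited counts.

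Other genes of the same pathways, from lists chosen with earlier results of these data known, were compared between forebrain and hindbrain in the same fit. Of 15 genes of barrier Wnt signalling 9 were higher in forebrain and 1 lower, with the Wnt effector gene Lef1 at 1.41 (SE 0.23, adjusted p = 0.000101) and the ligand gene Wnt7a at -0.73 (SE 0.17, adjusted p = 0.00218). Tnfrsf19 was at 1.44. Of 12 genes of VEGF, angiopoietin and PDGF signalling 4 were higher and 2 lower, with Nrp1 at 0.85 and Aplnr at -3.78, which was -2.56 from summed reads. Pdgfb, the ligand of the Pdgfrb receptor, was 3.29-fold higher in forebrain (1.72, SE 0.19, adjusted p = 1.65e-06), and Angpt1, the ligand of Tek, was lower by 0.84 on the log2 scale (adjusted p = 0.00141). Neurons and glia make several of these ligands, and bulk tissue does not separate the sources. Of 14 Notch and TGF-beta genes 6 were higher and 0 lower, among them Acvrl1, the partner receptor of endoglin, at 1.51 (SE 0.25, adjusted p = 0.000113), and the Notch ligand gene Jag2 at 1.27. These shares are to be read against the 26.4% and 25.3% of all genes. From summed reads the counts were 10 higher and 2 lower for Wnt and 4 and 4 for VEGF, angiopoietin and PDGF. For Notch and TGF-beta they were 9 and 2, where Heyl (-0.42) and Smad7 (-0.38) were the lower ones. On that scale 5772 of all 20191 genes were higher and 6478 lower.

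Of 9 other tight junction genes 1 was higher (Tjp1, 0.55, adjusted p = 0.00381) and 5 lower, Marveld2 and Cgnl1 most, at -1.82 and -1.17. Of 17 other barrier transporters 8 were higher and 4 lower: the taurine carrier Slc6a6 was at 1.13, against -0.72 for the monocarboxylate carrier Slc16a1 and -0.63 for the transferrin receptor gene Tfrc. Arterial and venous genes gave 2 higher and 1 lower of 10, with Efnb2 at 1.69, Vwf at 0.70 and Gkn3 at -0.65. Plvap, the diaphragm gene of leaky vessels, was lower in forebrain by 0.89 (adjusted p = 1.73e-05), and of its list of 4 Cav1 (-0.50) was also lower and Cav2 (0.36) higher. Of 10 other pericyte genes 2 were higher (Cspg4, 0.91, and Tbx18, 0.78) and 2 lower (Zic1, -2.09, and Mcam, -0.999). Of 10 tested smooth muscle genes of a list of 12, 3 were higher (among them Srf, 1.38, and Mylk, 1.25) and 1 lower (Casq2, -2.23). Zic1 was at a mean of 55.1 CPM in forebrain and 237 in hindbrain, and Casq2 at 3.19 and 14.8. Bulk tissue does not show which cells supplied either gene. From summed reads the other pericyte genes gave 3 higher and 5 lower, the other tight junction genes 3 and 5, and the other transporters 8 and 6. On the same scale the arterial and venous genes gave 3 and 1, the smooth muscle genes 4 and 2, and the leaky vessel genes 1 and 2. Over all genes 26.4% were higher and 25.3% lower on deposited counts. From summed reads 5772 of all 20191 genes were higher and 6478 lower.

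Genes of cells that sit beside or inside the vessels were also compared between forebrain and hindbrain on deposited counts. The part of these cells in the results above was not tested. Their counts are to be read against 26.4% of all genes higher and 25.3% lower in forebrain. Of 11 fibroblast genes 8 were lower in forebrain and 0 higher, with a summed level of 124 to 206 CPM in forebrain and 203 to 295 in hindbrain. Dcn was at -1.73 and Lum at -1.14. Choroid plexus genes were lower in 7 of 10 (394 to 886 against 942 to 3300 CPM), with Kcnj13 at -2.02 and Ttr at -1.43, and blood cell genes in 7 of 7 (506 to 1549 against 1061 to 2711 CPM), with S100a8 at -2.13 and S100a9 at -1.82. Microglial genes were higher in 8 of 10 (310 to 434 against 160 to 198 CPM), with Cx3cr1 at 1.402 and Csf1r at 1.34. Astrocyte genes split into 3 higher and 4 lower of 10, with Slc1a2 at 1.91, Sox9 at 0.97, S100b at -2.25 and Gfap at -1.65. No defining marker of these cell types was at 0 in any library.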

How the data were processed

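Polyadenylated RNA of 18 libraries was read as single-end 50-base reads by the authors, who estimated transcripts with salmon in the bcbio-nextgen pipeline and imported them per gene with bcbioRNASeq; the submitters' processing notes list Salmon 0.14.0, DESeq2 1.30.1 and mm10. The deposited gene table holds estimated counts rounded to whole numbers, and the deposited transcript files hold estimated counts, TPM and effective lengths. TPM summed per gene and scaled by mean length gave back the table, with 97.2 to 99.9% of genes within 1 count. Only 2 of 18 transcript files carried the values of the library under which they were deposited, so each was tied to the table column whose counts it gave back, the next library being at least 9.23% apart. Whether the labels of the table or those of the files are the right ones is not known; those of the table were used, and every genotype and region value rests on them. Groups came from the sample titles. A deposited table of variance-stabilized values was held only in part and not used here, and 105 gene IDs without a symbol (0.0439% of counts) were matched to no name.

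Deposited counts were tested in edgeR 4.0.16 (R 4.3.3, limma 3.58.1) with quasi-likelihood fits, TMM scaling, filterByExpr and Benjamini-Hochberg adjustment over all genes tested at 0.05. Genotypes were compared within each region, over the regions summed per mouse and as an interaction, and regions in 1 fit of 6 group means. DESeq2 1.42.0, other scalings and filters, single genotypes, left-out mice and the mouse as a block were alternatives, as were summed reads and a length trend (lowess, span 0.3), which were added after the data were seen. The test functions were also run on counts simulated independently for each library. Those counts hold no effect of the mouse, so they cannot show how the region p-values fare with one. Regions were paired by the mouse number in the titles: deviations of 1 mouse's regions correlated at -0.17 to 0.18 over 18 pairs. The same number in both genotypes marks different animals (correlations of -0.12 to 0.07). Replicates differed beyond sampling noise, with a chi-square per degree of freedom of 14.2 to 81.4. Replicates were labelled biological, so p-values between genotypes, within a region or over summed regions, measure the spread among 3 mice per genotype. The main region fits and the interaction take the 18 libraries of 6 mice as independent, so their p-values do not measure that spread. The libraries were run in pools whose membership was not given in the sources used here, so a batch could not be tested.

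All 36 members were described; members got full genotype statistics where their difference was the largest of their group. Up to 2 higher and 2 lower called genes were named from each other list. Members and lists were chosen with earlier results of these data known. Intervals are 95%.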

Additional observations from a re-analysis of the deposited data

Results flagged for a closer look

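Abcc9, the gene of the regulatory subunit of the pericyte KATP channel, differed between forebrain and hindbrain in opposite directions in the genotypes. Its mean log2 difference of forebrain over hindbrain was -0.225 in the 3 Fmr1CRE mice, each of which was lower in forebrain, and 0.252 in the 3 WT mice, each of which was higher. Forebrain levels were 4.11, 4.98 and 7.46 CPM in Fmr1CRE and 6.30, 9.35 and 8.22 in WT, and hindbrain levels 5.01, 5.99 and 8.17 against 5.38, 6.70 and 7.91. Among all genes 1.65% (337 of 20363) had such opposite directions in every mouse, and none of the other 35 members did. The count of every mouse includes the forebrain libraries of replicate 3, which go against their labels more often than the others and differ little from hindbrain in this gene. In replicates 1 and 2 alone, both Fmr1CRE mice were lower and both WT mice higher in forebrain. The edgeR interaction test did not pass for Abcc9 (adjusted p = 0.809).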

How the results depend on the processing

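Of the 22 members called between forebrain and hindbrain, 6 were called under every alternative; of 18 between midbrain and hindbrain, 3 were; of 6 between forebrain and midbrain, none. Leaving out each mouse gave 16 to 18, 11 to 18 and 4 to 6 called members for these comparisons. The shares of all genes were then 43.6 to 48.2%, 37.7 to 46.6% and 10.8 to 19.2%. At least 1 single left-out mouse ended the calls of Ocln, Cdh5, Itm2a, Flt1, Sox18, Vtn, Acta2 and Myl9 between forebrain and hindbrain, of Egfl7, Abcb1a and Higd1b between forebrain and midbrain, and of Ocln, Cdh5, Pecam1, Bsg, Eng, Mfsd2a, Foxf2 and Tagln between midbrain and hindbrain. Between forebrain and hindbrain, midbrain and hindbrain, and forebrain and midbrain, 7, 3 and 0 were called in the Fmr1CRE libraries alone (31.8, 24.9 and 2.71% of all genes), and 19, 14 and 4 in the WT libraries alone (42.7, 38.5 and 8.89%). Each of these fits holds 3 of the 6 mice. Between forebrain and midbrain, summed reads gave 10 (28.3% of all genes) and summed reads without both mice of replicate 3 gave 10 (28.8%). Removal of the length trend gave 13 (28.4%), and the cause was not tested. Abcb1a turned to -0.0848 between forebrain and midbrain on summed reads without replicate 3, and Esam to 0.20 between midbrain and hindbrain once the length trend was removed. With the replicate block 20, 20 and 7 members were called (50.1, 47.5 and 17% of all genes). The block changed no call other than those of Ocln, Acta2, Abcb1a, Rgs5, Vtn, Atp13a5 and Myl9. Genotype comparisons gave 0 called members under every alternative that was run, the replicate block included. Over all genes, genotype calls were 0, 1, 0, 1 and 0 in edgeR and 31, 62, 60, 29 and 51 in DESeq2 for forebrain, midbrain, hindbrain, summed regions and the interaction; on summed reads without replicate 3, forebrain gave 92 of 18682 and the interaction 314, and on deposited counts without replicate 3 the interaction gave 131. With no filter midbrain and hindbrain gave 11 each. Region calls over all genes fell in the Fmr1CRE libraries alone to 6178 from 10530 (forebrain and hindbrain), to 4847 from 9994 (midbrain and hindbrain) and to 527 from 3939 (forebrain and midbrain), the last being 1729 in WT libraries alone and 2592, 2258 and 2337 without Fmr1CRE replicate 1, WT replicate 1 and WT replicate 2. Genotype comparisons rest on 3 mice per genotype.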
